A study of Mus musculus with 2 samples.

Results

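Eya, Dach and Six-family proteins form a nuclear network first described in the developing eye of Drosophila. Six-family proteins bind DNA through a homeodomain, Eya proteins bind them and act as transcriptional coactivators that also carry a phosphatase activity, and Dach proteins are nuclear regulators related to the corepressors of the Ski family. In the mouse the network is best known from muscle precursors, the kidney and the cranial sensory placodes.

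ATAC-seq, in which the transposase Tn5 cuts and tags accessible DNA, was used here to describe the chromatin around 8 genes of this network: Six2, Six4, Eya1, Eya2, Eya3, Eya4, Dach1 and Dach2. An entry of the deposited list is a summit, the base where the reads of an accessible interval pile up highest, and an interval may hold several summits. An entry was given to a gene when its summit lay inside the gene, or outside it within 100 kb with that gene's end as the nearest end of any protein-coding gene. By this rule 220 of the 138387 entries, in 171 of 104069 intervals, belonged to the 8 genes. The 8 genes were selected on the presence and number of such entries in this same list, so their counts and strengths are a description and carry no test.

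The cells were GFP-positive cells sorted from Hb9::GFP embryos of the C57/Bl6 strain on embryonic day 10.5, labelled as motor neurons of the spinal cord. The transgene uses regulatory DNA of Hb9, an older name of the motor neuron homeobox gene Mnx1, so the gate selects cells on the activity of that DNA. There was 1 group with 2 replicates, and the list analysed here pools them, with no other genotype, stage or tissue, so no value below has a replicate error. Whether the replicates came from separate litters is not given in the sources used here. In such a bulk sample, accessibility in more of the cells and more frequent access within each cell cannot be told apart.

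The strength of an entry is given in 2 ways. The fold is the authors' enrichment at the summit, and the reads are the pileup at that base, recovered from the deposited fold and p-value. Over the whole list the median was 3.14-fold and 24 reads over a local background of 5.73 reads, no entry had fewer than 11 reads, and 24503 entries (17.7%) did not reach a q-value under 0.05. Intervals on reads are exact 95% Poisson intervals and cover counting error only. All 5 motor neuron markers (Mnx1, Isl1, Lhx3, Chat and Slc5a7) had a summit within 1 kb of a gene end. So did 3 of 5 muscle and somite markers, 3 of the 4 sensory neuron markers matched, 5 of 5 kidney markers and 1 of 5 blood markers. The share over all 21887 protein-coding genes was 65.5%. The median number of entries per gene was 16 in the motor neuron list (7 to 17), 5 in the muscle list (4 to 7), 9 in the sensory list (5 to 18), 11 in the kidney list (6 to 12) and 3 in the blood list (0 to 16). Among the blood markers, Hbb-bs and Alas2, both genes of red blood cells, had 0 entries. The part of other cell types in the entries of the 8 genes was not tested.

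Promoter sequences were at hand for 6 of the 8 genes, as 9 stretches of 300 bases that run from 250 bases before a transcription start to 50 bases from it onward (RefSeq, GRCm38.p6). A summit lay inside 7 of the 9 stretches and in at least 1 stretch of each of the 6 genes. The 5 stretches below each hold a summit and are given so that the bases under it can be read. Each is given 5′ to 3′ on the strand of the gene, the start is base 251, and capitals mark the GC box GGGCGG and the CCAAT box CCAAT on either strand and, in Six4, also the MEF3 element TCAGGTTTC, which Six-family proteins bind in muscle genes.
Six2, chr17:85688205-85688504, minus strand: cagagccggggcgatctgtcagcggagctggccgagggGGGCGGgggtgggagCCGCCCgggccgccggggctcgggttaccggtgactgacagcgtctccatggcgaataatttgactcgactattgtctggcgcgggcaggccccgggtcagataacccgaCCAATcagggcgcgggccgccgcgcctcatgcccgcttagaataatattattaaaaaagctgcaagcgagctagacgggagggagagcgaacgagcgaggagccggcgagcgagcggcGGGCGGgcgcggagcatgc
Six4, chr12:73113196-73113495, minus strand: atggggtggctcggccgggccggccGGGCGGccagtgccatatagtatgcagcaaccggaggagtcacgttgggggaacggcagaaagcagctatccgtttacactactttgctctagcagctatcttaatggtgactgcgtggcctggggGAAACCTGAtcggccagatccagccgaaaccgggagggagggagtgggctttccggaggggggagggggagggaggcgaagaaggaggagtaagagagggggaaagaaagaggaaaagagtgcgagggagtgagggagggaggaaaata
Eya3, chr4:132638796-132639095, plus strand: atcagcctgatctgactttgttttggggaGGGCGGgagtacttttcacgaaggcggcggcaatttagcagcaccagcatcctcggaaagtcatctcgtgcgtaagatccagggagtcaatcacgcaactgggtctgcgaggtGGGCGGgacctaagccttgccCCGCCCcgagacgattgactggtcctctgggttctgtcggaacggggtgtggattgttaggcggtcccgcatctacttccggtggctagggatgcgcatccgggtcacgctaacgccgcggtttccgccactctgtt
Dach1, chr14:98169716-98170015, minus strand: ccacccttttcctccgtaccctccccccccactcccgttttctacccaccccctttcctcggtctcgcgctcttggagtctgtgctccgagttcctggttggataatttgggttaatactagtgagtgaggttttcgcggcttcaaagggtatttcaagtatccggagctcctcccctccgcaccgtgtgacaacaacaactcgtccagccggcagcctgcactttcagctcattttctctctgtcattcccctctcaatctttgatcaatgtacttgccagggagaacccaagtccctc
Dach2, chrX:113298006-113298305, plus strand: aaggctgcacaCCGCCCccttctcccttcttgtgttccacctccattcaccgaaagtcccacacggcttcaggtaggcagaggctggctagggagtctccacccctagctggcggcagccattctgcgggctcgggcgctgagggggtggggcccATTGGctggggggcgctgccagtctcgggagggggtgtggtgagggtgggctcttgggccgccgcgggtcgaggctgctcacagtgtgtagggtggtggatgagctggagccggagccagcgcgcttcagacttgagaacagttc

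In the Six2 stretch the summit was at base 157, 94 bases before the start, 7 bases from the CCAAT box and 98 to 125 bases from the 3 GC boxes, and 67.3% of its bases were G or C. In the Six4 stretch the summit was at base 7, 244 bases before that start, 19 bases from the GC box and 145 bases from the MEF3 element. The same summit lay 64 bases before another listed Six4 start, in an overlapping stretch where it was 5 bases from a CCAAT box and 19 bases from the same GC box. In the Eya3 stretch the summit was at base 220, 31 bases before the start, and the 3 GC boxes lay 51 to 185 bases from it. In the Dach1 stretch the summit was at base 168, 83 bases before the start, and none of the searched boxes was present. In the Dach2 stretch a summit was at base 248, 3 bases before the start, 88 bases from the CCAAT box and 231 bases from the GC box, and another lay 184 bases before the start.

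The stretches of Eya4 overlap each other, as do those of Six4, so the 9 are not separate sequences. The same GC box of each of these genes and the same Eya4 E-box count in both stretches below, and shared bases enter the medians in both. GC boxes were in 7 of the 9 stretches, against 35.7% of 32851 promoters. By gene they were in 5 of the 6, all but Dach1, and no share per gene was computed over all genes. CCAAT boxes were in 3 of the 9, against 37.4% of all promoters. The general E-box CANNTG was in 4 of the 9, against 72.3%, and the TATA box TATAAA in 1, an upstream Dach2 start, against 13.6%. The MEF3 element occurred once, on the strand opposite to the gene 99 to 91 bases before a Six4 start, and in 0.429% of all promoters. The Six-family core TGATAC had no match in the 9 stretches and was in 5.46% of all promoters. The homeodomain core TAATTA also had none, against 5.29%. The E-box form CAGCTG and the nuclear receptor half-site TGACCT each matched none of the 9, and each was in 16.3% of all promoters. The octamer ATTTGCAT had no match against 1.74% of all promoters, and the cAMP response element TGACGTCA none against 1.79%. The median ratio of observed to expected CpG was 0.918 in the 9 stretches and 0.384 in all promoters, and the median GC content was 60.0% and 52.7%. These matches are letters in a window and show no binding.

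**Figure D1:**
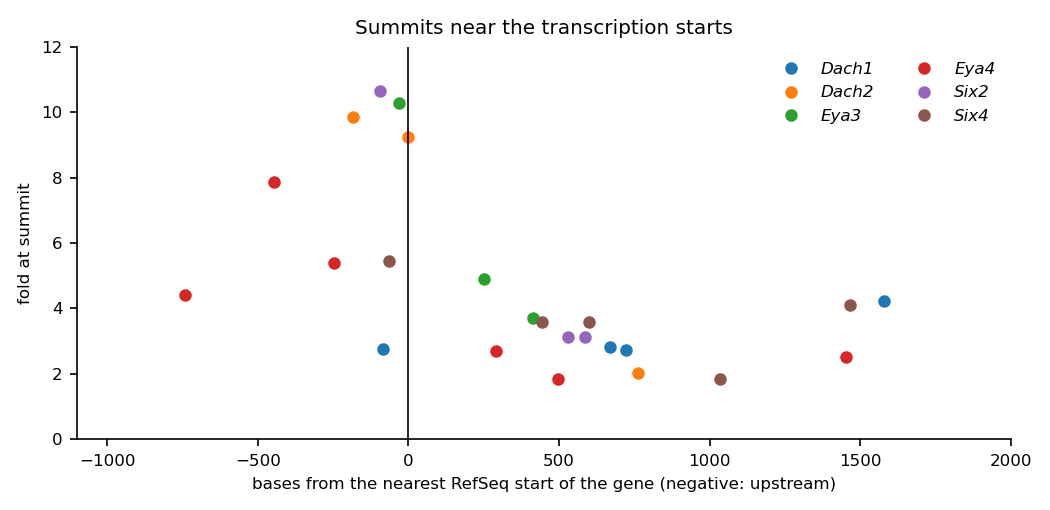
Fold at each summit (y axis) against its distance in bases from the nearest RefSeq start of the same gene (x axis, negative values upstream) for the 6 genes with listed starts. The summits of Six2, Eya3 and Dach2 just before a start reach 9.25-fold to 10.6-fold, and the Dach1 summits within 1 kb of the start lie between 2.72-fold and 2.83-fold.

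When any interval reaching within 1 kb of an end counted, all 8 genes had one, Eya1 included, and no share over all genes was computed for that setting. By summit, an entry within 1 kb of an end was present at 7 of the 8 genes, all but Eya1, against 65.5% of 21887 protein-coding genes. Within 500 bp of an end it was 5 of 8, without Eya1, Dach2 and Six4, against 60.0% of all genes, and within 2 kb all 8, against 70.5%. The highest such entry per gene had a median of 7.86-fold and 81 reads over the 7 genes and 8.16-fold and 97 reads over the 14341 genes that had one. Six2 was highest with 10.6-fold, followed by Eya3 with 10.3-fold, Dach2 with 9.85-fold and Eya4 with 7.86-fold, and then Eya2 with 5.52-fold, Six4 with 5.44-fold and Dach1 with 2.83-fold. In reads the order was Six2 with 170, Eya3 with 111, Dach2 with 85, Eya4 with 81, Six4 with 66, Dach1 with 53 and Eya2 with 37. The Poisson intervals of Dach2 (67.9 to 105) and Eya4 (64.3 to 101) overlapped almost wholly, and that of Six2 (145 to 198) overlapped none of the others.

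Of the 220 entries, 18 lay within 1 kb of an end, 56 inside a gene at 1 to 50 kb from the nearer end, 92 inside a gene at least 50 kb from both ends, and 54 outside and over 1 kb away. The 92 entries far inside were 41.8% of the 220, against 14.1% of all entries on chromosomes. Dach1 alone held 57 of them, and without Dach1 the share was 27.8% (35 of 126). Inside any part of the gene lay 74.1% of the 220, against 52.9% of all entries on chromosomes. These shares are not matched for gene length or for the rule. Only genes of 100 kb or longer can hold an entry far inside, and 5 of the 8 were that long, against 2429 of 21887 protein-coding genes. The rule takes every entry inside a gene but outside entries only within 100 kb, while the entries on chromosomes have no such limit. Median strength was 4.66-fold and 52.5 reads within 1 kb of an end, 3.14-fold and 23.5 reads far inside, 2.90-fold and 28 reads at the intermediate positions and 2.67-fold and 18 reads outside. For the list as a whole the medians were 5.49-fold and 64 reads within 1 kb of a gene end and 2.98-fold and 21 reads elsewhere.

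**Figure D2:**
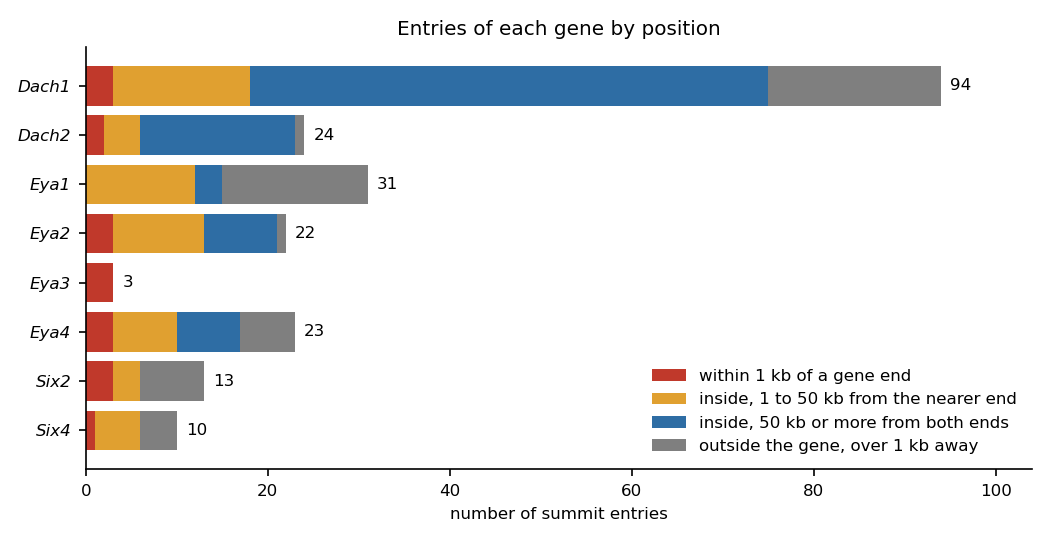
Number of summit entries (x axis) of each gene (rows), split by position relative to the gene's ends; the number at the end of each bar is the total. Dach1 holds 94 entries, 57 of them far inside, and all 3 entries of Eya3 are within 1 kb of an end.

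Over all 8 genes the fold ran between 1.64 and 10.9, with a median of 2.98, and reads between 11 and 170, with a median of 25.5. A q-value under 0.05 was reached by 173 of the 220 (78.6%). The other 47 (21.4%) did not reach it, against 17.7% of the whole list. The number per gene was between 3 and 94 with a median of 22.5, against a median of 3, a mean of 5.65 and a highest value of 162 over all protein-coding genes. Gene length differs greatly among the 8, so counts were also scaled to the gene's territory, the gene and the flanks from which the rule could take entries. That gave 16.1 entries per 100 kb for Dach1, 9.98 for Eya2, 9.06 for Eya1, 9.04 for Six2, 8.47 for Six4, 5.14 for Eya4, 3.45 for Dach2 and 2.63 for Eya3. The median over the 8 genes was 8.75, against 6.0 over all genes, and Eya4, Dach2 and Eya3 were below that value. With 1 entry per interval the medians were 5.59 for the 8 genes and 4.50 for all genes, and Six4 was then also below the median of all genes. Among entries in the upper 50% by −log10 q they were 4.31 and 3.06. The 5 genes of 100 kb or longer (Dach1, Dach2, Eya1, Eya2 and Eya4) all had an entry at least 50 kb from both ends, against 73.9% of the 2429 genes of that length. Their median was 8 such entries, against 3 over all genes of that length.

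**Figure D3:**
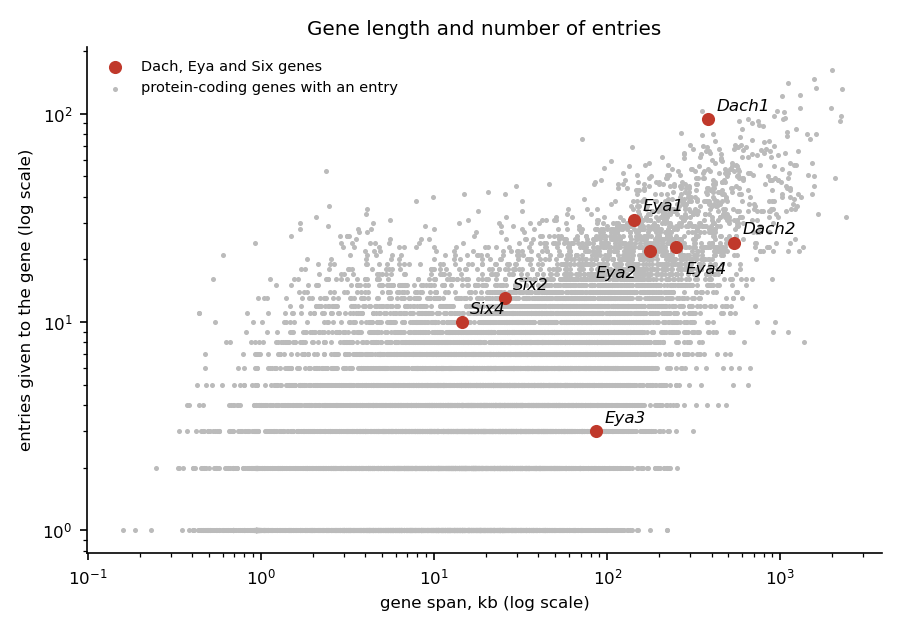
Number of entries (y axis, log scale) against gene span in kb (x axis, log scale) for protein-coding genes with an entry (grey) and the 8 genes (red). Dach1, with 94 entries in and around 382.9 kb, lies near the upper edge of the genes of its length, while Eya3 (3 entries, 85.7 kb) lies in the lower part.

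Six2 keeps nephron progenitors of the kidney undifferentiated. It spans chr17:85662736-85688254 on the minus strand (mm10, as all coordinates here) and had 13 entries, 5 inside and 8 outside. The entry with the highest −log10 q of all 220 (110) was at its start, in chr17:85687424-85688871, with 10.6-fold and 170 reads (95% interval 145 to 198) over a background of 15.1. Its summit lay between the start of Six2, 94 bases away, and the start of the noncoding RNA gene CJ186046Rik, 146 bases away on the other side, so it cannot be assigned to either start. The other 2 summits of that interval, inside Six2, had 49 reads each.

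Farther from Six2, the interval chr17:85748110-85749207, 60.5 kb from its 5′ end, reached 9.69-fold and 75 reads (59.0 to 94.0). On the opposite side, chr17:85645745-85646526, 16.8 kb past the 3′ end, reached 8.90-fold and 67 reads (51.9 to 85.1). Both were above 8.16-fold, the median of the highest entry within 1 kb of an end over all genes that had one, and their Poisson intervals overlapped. Within the gene the highest entry over 1 kb from both ends had 5.34-fold and 33 reads, 2.43 kb from the 3′ end.

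Six4, which acts with a close Six-family relative in muscle and sensory neurons, spans chr12:73099609-73114031 on the minus strand and had 10 entries. Its highest by −log10 q, at the start, had 5.44-fold and 66 reads (51.0 to 84.0) in chr12:73112471-73113686. All 6 entries inside lay within 3.53 kb of the 5′ end, and the 10.9 kb toward the 3′ end held none. Among those over 1 kb from both ends, the highest by −log10 q had 4.10-fold and 51 reads. The highest fold, 7.07 with 44 reads, lay outside at 9.84 kb from the 5′ end. It was 154 bases from the start of Mnat1, a gene of the transcription factor TFIIH complex, whose span overlaps that of Six4. In all, 3 of the 4 outside entries were within 1 kb of that Mnat1 start, and 8 of all 10 lay inside the span of Mnat1.

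Eya1, whose loss in the mouse prevents formation of ears and kidneys, spans chr1:14168953-14311035 and had 31 entries, 15 inside and 16 outside. It had no entry within 1 kb of an end, but its strongest, chr1:14309483-14310503, had its summit 1.13 kb inside the higher-coordinate end, with 10.7-fold and 115 reads (94.9 to 138). This was the third highest −log10 q of the 220, at 76.5. Outside, a pair of summits in chr1:14136056-14136657, 32.7 and 32.5 kb below the lower end and inside the noncoding RNA gene Gm39596, had 7.1-fold with 74 reads and 6.64-fold with 69 reads. On the other side of the gene, entries at 37.6 and 49.3 kb had 5.34-fold with 33 reads and 5.32-fold with 35 reads. A wide interval of 1791 bases, chr1:14165070-14166860, held 5 summits just below the lower end, none above 3.50-fold. Only 3 of the 31 entries were at least 50 kb inside, the highest of them 3.46-fold with 21 reads.

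Eya2, expressed in placodes and muscle precursors, spans chr2:165595028-165771727 and had 22 entries, 21 of them inside. Its strongest was the only outside entry, chr2:165563165-165563857, 31.5 kb below the lower end, with 9.02-fold and 65 reads (50.2 to 82.8). The entries inside were spread along the gene: 6.91-fold with 46 reads at 35.1 kb from the lower end, 5.78-fold with 44 reads at 47.3 kb, 6.35-fold with 44 reads at 58.8 kb, and 5.59-fold with 47 reads at 13.0 kb from the higher end. The highest within 1 kb of an end had 5.52-fold and 37 reads (26.1 to 51.0). Its interval overlapped those of the inside entries, so the end did not stand out from the interior in reads.

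Eya3, a broadly expressed Eya gene, spans chr4:132639025-132724765 on the plus strand and had 3 entries, all in 1 interval of 1093 bases at its start, chr4:132638674-132639766. The first summit had 10.3-fold and 111 reads (91.3 to 134), and those 251 and 412 bases after the start had 4.90-fold with 52 reads and 3.70-fold with 39 reads. The remaining 85.3 kb of the gene had no entry. Eya3 was the only one of the 8 genes without an entry over 1 kb from its ends, and its 2.63 entries per 100 kb of territory was the lowest of the 8.

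Eya4, a gene of inherited hearing loss in humans, spans chr10:23102962-23350838 on the minus strand and had 23 entries in 13 intervals. A 1834-base interval at the 5′ end, chr10:23349237-23351070, held 5 summits, of which the highest had 7.86-fold and 81 reads (64.3 to 101), 447 bases before a listed start. Far inside, 79.5 kb from the 5′ end, chr10:23270982-23271587 had 7.23-fold and 45 reads (32.8 to 60.2). The 75.7 kb next to it toward the 3′ end held none, and beyond that gap an entry 92.6 kb from the 3′ end had 5.66-fold and 35 reads. The 6 entries outside had at most 4.56-fold and 28 reads.

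**Figure D4:**
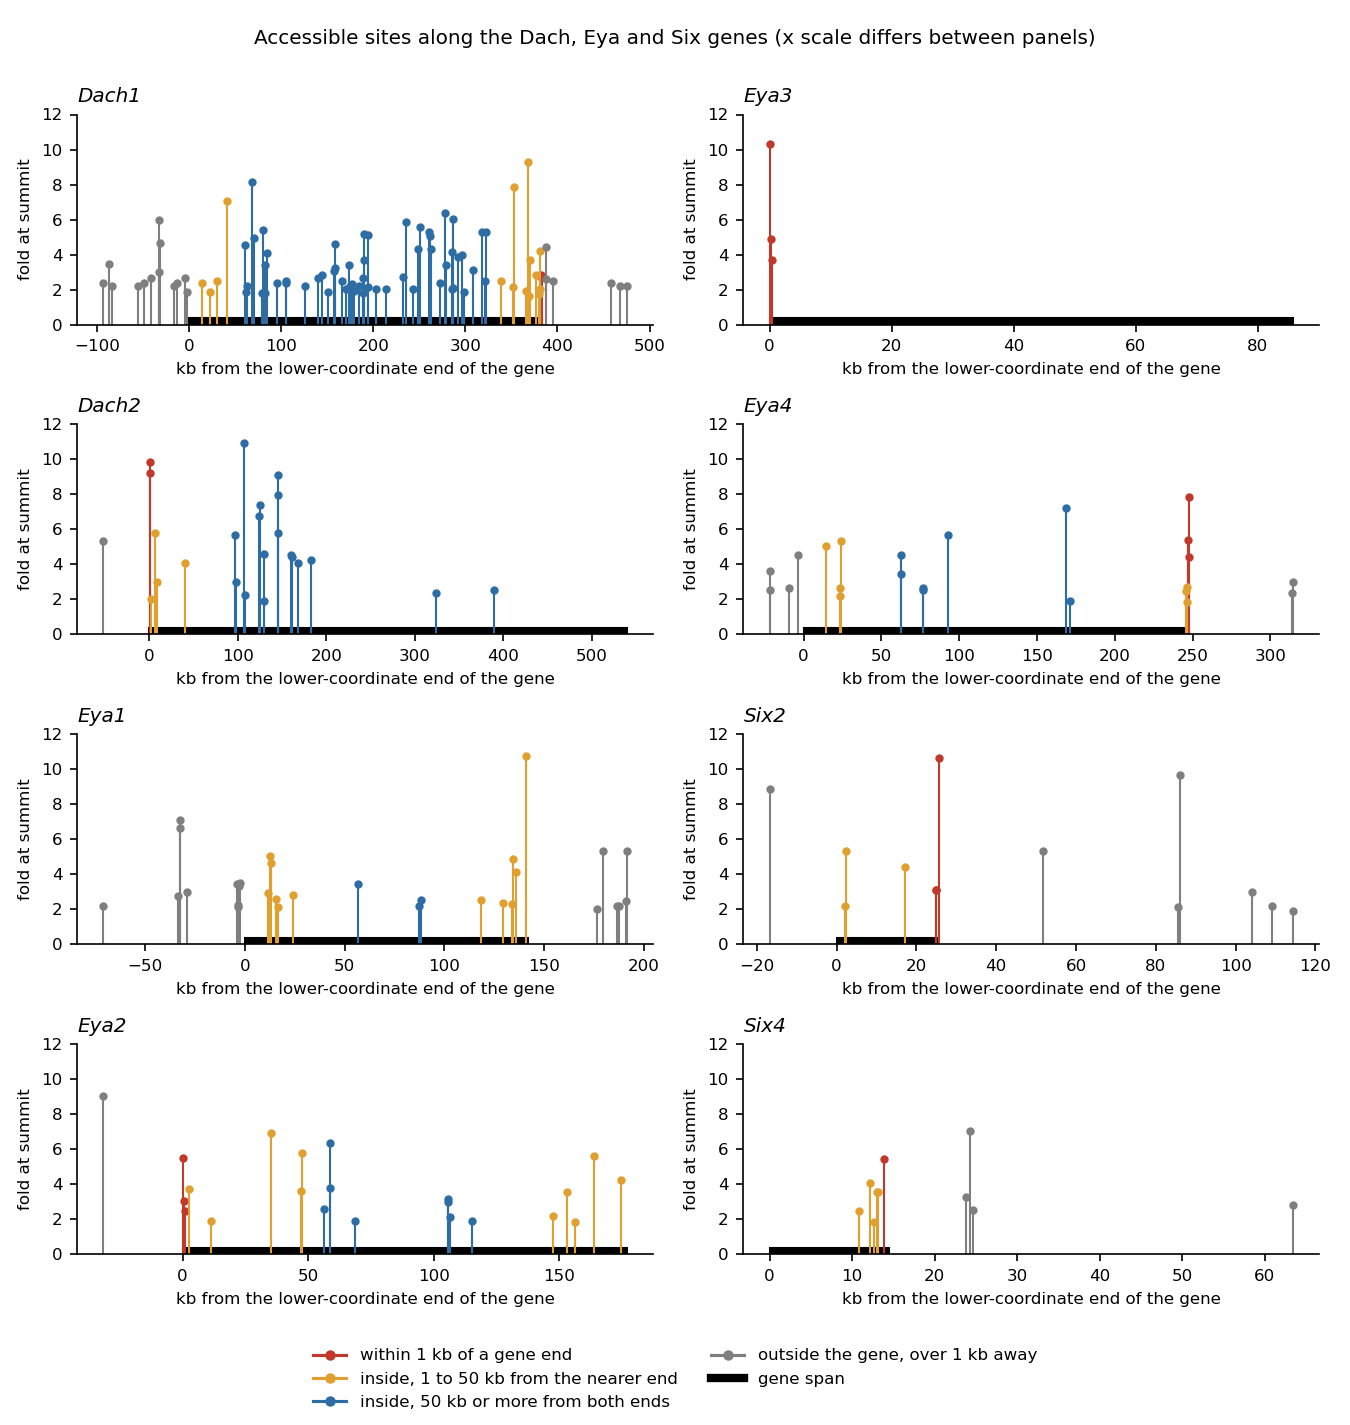
Fold at each summit (y axis) against distance in kb from the lower-coordinate end of the gene (x axis, scale differs between panels); the black bar is the gene and colour gives the position class. Dach1 and Eya2 have entries along most of their length, Dach2 has 21 of its 23 inside entries in the 5′ part, and Eya3 has its 3 at the start.

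Dach1, expressed in neural progenitors, eye and limb buds, spans chr14:97786846-98169765 on the minus strand, 382.9 kb, and had 94 entries in 83 intervals. Its rank among protein-coding genes was 16 by number of entries and 34 by number of entries far inside. Of its 74 entries inside, 35 were in the 3′ part and 39 in the 5′ part when the gene is cut at its middle, and no stretch longer than 20.8 kb was without one. When entries within 10 kb of each other were joined, they formed 17 groups, the largest of 20 entries over 63.0 kb, between 140.0 and 203.1 kb from the lower end. The 3 protein-coding genes nearest in length, Dnah7c, Tmem178b and Zfp407, had 9, 20 and 44 entries.

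Individual Dach1 entries were mostly weak, with a median of 2.66-fold and 23 reads, and 69 of 94 had a q-value under 0.05. The strongest, chr14:98154787-98155476, had 9.28-fold and 132 reads (110 to 157), 14.6 kb into the gene from its 5′ end. The next, chr14:97854789-97855680, had 8.12-fold and 102 reads (83.2 to 124), 68.5 kb from the 3′ end and 314.4 kb from the 5′ end. Another at 30.3 kb from the 5′ end had 7.84-fold and 67 reads, and the entry at 40.9 kb from the 3′ end had 7.03-fold and 49 reads. Outside, the highest was 5.99-fold with 57 reads, 33.0 kb past the 3′ end.

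In fold, the start of Dach1 was below all 4 of these inner sites. The summit 83 bases before the start, whose sequence is given above, had 2.77-fold and 54 reads (40.6 to 70.5) over a background of 18.9, and the summits 668 and 723 bases after it had 2.83-fold with 53 reads and 2.72-fold with 50 reads. A stronger summit of the same interval, 1581 bases after the start, had 4.23-fold and 79 reads. The backgrounds within 1 kb of the start, 17.8 to 18.9 reads, compare with a median of 6.26 for the gene's entries, and an inner entry with the same 53 reads, 105.4 kb from the 5′ end, had 6.35-fold over a background of 7.50. In reads, the interval at the start lay below those of the inner entries with 132 and 102 reads and overlapped those of the entries with 67 reads (51.9 to 85.1) and 49 reads (36.3 to 64.8). The summit before the start lay 320 bases from the start of the noncoding RNA gene Gm33583 on its other side.

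Dach2, the X-linked paralog of Dach1, spans chrX:113297496-113836386 on the plus strand, 538.9 kb, and had 24 entries, 23 of them inside. The interval at its start, chrX:113297517-113299070, held 3 summits. Those 184 and 3 bases before the downstream of 2 listed starts had 9.85-fold and 85 reads (67.9 to 105) and 9.25-fold and 80 reads (63.4 to 99.6), and that 761 bases after it had 2.02-fold and 17 reads, with a q-value above 0.05. The highest fold of the 220, 10.9 with 78 reads (61.7 to 97.3), was far inside at chrX:113404018-113404859, 106.9 kb from the 5′ end. Further entries far inside had 7.37-fold with 60 reads at 124.6 kb and 9.11-fold with 57 reads at 145.3 kb. The intervals of the start and of the entry at 106.9 kb overlapped. Of the 23 inside, 21 were in the 5′ part and 2 in the 3′ part of the gene cut at its middle, and the last 149.3 kb held none. The only outside entry, 51.6 kb from the 5′ end, had 5.34-fold and 33 reads.

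Dach1 and Dach2 had different numbers and strengths of entries. Per 100 kb of gene Dach1 had 19.3 entries inside and Dach2 4.27, against a median of 5.40 over genes of 100 kb or longer. The median fold over all entries was 2.66 in Dach1 and 4.57 in Dach2. The X chromosome as a whole had a median of 3.77-fold and 26 reads, against 3.14-fold and 24 reads on the autosomes. The part of the chromosome in the Dach2 values was not tested.

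**Figure D5:**
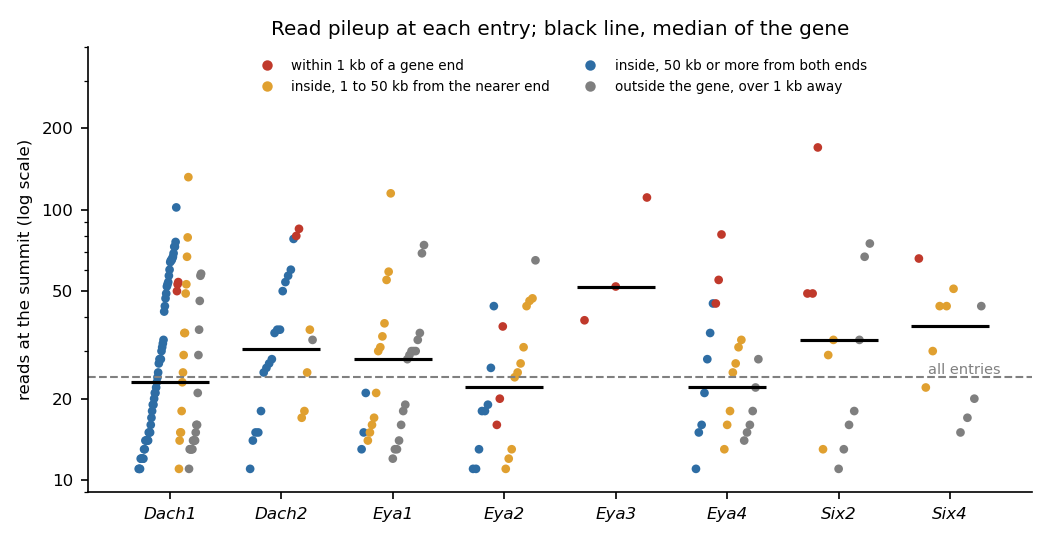
Reads at the summit (y axis, log scale) of each entry, by gene (x axis) and position class (colour); the black line is the gene's median and the dashed line the median of all entries, 24 reads. The highest point of Six2, 170 reads, is at the start of the gene, while the highest points of Dach1 (132 reads) and Eya1 (115 reads) are over 1 kb inside.

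By −log10 q, the strongest entry lay over 1 kb from both ends in 3 of the 8 genes (Dach1, Eya1 and Eya2), against 40.3% of the 18169 genes with any entry. The 10 highest of the 220 came from 6 genes: 2 from Six2, 2 from Dach1, 3 from Dach2 and 1 each from Eya1, Eya3 and Eya4. Of these 10, 5 lay within 1 kb of a gene end, 2 inside between 1 and 50 kb, 2 far inside and 1 outside. Several summits shared 1 interval in 31 of the 171 intervals, and entries of 1 interval rest partly on the same reads.

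The limit of 100 kb decided which outside entries were counted at 4 genes. At Dach1 the last entry inside the limit was at 93.1 kb with 2.36-fold and 14 reads, and the next, at 120.7 kb, had 2.2-fold and 13 reads. At Eya1 they were at 70.9 kb with 2.2-fold and at 110.3 kb with 1.89-fold, at Eya4 at 66.4 kb with 2.98-fold and at 114.4 kb with 2.36-fold, and at Six2 at 88.8 kb with 1.89-fold and at 111.1 kb with 2.67-fold. Beyond the limit, with the same gene end still the nearest, lay 39 entries at Dach1, 20 at Eya1 and 5 each at Eya4 and Six2. The other 4 genes had none beyond it.

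Against families of regulators with many entries, the 8 genes had a median of 22.5 entries (3 to 94), the 9 TALE homeobox cofactors 36 (3 to 69) and the 4 Nfi genes 31 (12 to 68). Scaled to territory the medians were 8.75, 16.4 and 16.5 per 100 kb. Within the network, the 4 other Six-family genes had 3 to 12 entries and the 5 Pax genes that act upstream or beside it 12 to 48, with an entry within 1 kb of an end at 3 of 4 and 4 of 5. The 4 Ski relatives of Dach had 5 to 18 entries and the 4 genes known to be regulated by Eya and Six-family proteins in muscle or kidney (Myod1, Myog, Gdnf and Sall1) 4 to 26, with an entry within 1 kb of an end at all 4 in each list. Over all protein-coding genes that share was 65.5%. Scaled to territory, the medians per 100 kb were 12.4 for the other Six-family genes and 12.4 for the Pax genes. They were 13.3 for the Ski relatives and 10.6 for the regulated genes, all above the 8.75 of the 8 genes. In number of entries Dach1, with 94, was above every gene of these 6 lists, whose highest was Meis1 with 69. Scaled to territory it was not, with 16.1 entries per 100 kb against 20.3 for Meis1. The highest scaled value in these lists was 55.3 for Pbx2. Every list except that of the regulated genes held a gene above Dach1 by this measure.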

How the data were processed

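The deposited list is a narrowPeak file in mm10 for both replicates together. MACS2 2.2.7.1, SAMtools 1.7.2, BWA 0.7.1.7, cutadapt 0.6.2 and Trim Galore are listed in the submitters' processing notes. How each was set, how duplicates were treated, whether reads were shifted for the Tn5 cut and how the list was filtered was not given in the sources used here. Libraries took 8 to 9 PCR cycles and were read as paired 75-nt ends, per the labels' protocols.

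In the deposited list, the authors' score was 10 times the −log10 p in 99.9993% of entries, and it was not used further. The lowest −log10 p of any entry was 2.00. The authors' fold is a ratio of pileup to local background, each raised by 1 read, and their −log10 p and −log10 q-value are those of the summit. At 91 of the 220 entries the background was at the lowest value of the list, 5.37 reads. Fold and reads are not separate measures at those entries. Reads were recovered by solving the deposited fold and the deposited −log10 p as an upper Poisson tail. The result was whole within 0.01 reads for 99.96% of entries, and the procedure was tested on simulated data. Total depth per replicate is unknown, so entries near the minimum of 11 reads are the least certain.

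Gene spans and starts came from RefSeq GRCm38.p6, the assembly behind mm10 (21887 protein-coding genes on chromosomes), which gave no exons, so a site is only called inside a gene. Python 3.11.15, numpy 2.4.6, scipy 1.17.1, pandas 2.3.3 and matplotlib 3.10.9 were used. The genes and lists were chosen with earlier results of these data known. The entries named are, per gene, the highest by −log10 q at any position, within 1 kb of an end, inside and outside, and the 10 highest over all 8 genes. Those nearest the 100 kb limit are named for the genes with entries beyond it. Others named were chosen after their values were seen. With 1 pooled list there was no test between groups.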

Additional observations from a re-analysis of the deposited data

How the results depend on the processing

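No paired analysis was possible because the list pools both replicates of 1 group, and no replicate could be left out. Of 40 values recomputed under other settings, 30 moved by less than the limit set for them and 10 moved more. The limit was 1.5 times for a count or a density, the 95% interval of the main median for fold and reads, and the range over the 8 genes for the strongest entry. With a q-value under 0.05 the median fold was 3.64 and the median reads 31. With the upper 50% of all entries by −log10 q there were 110 entries, 11 per gene, 4.89-fold and 45 reads at the median, 4.31 entries per 100 kb of territory and 44 far inside. With 1 entry per interval the density was 5.59 per 100 kb, and Six4 had 5 entries, Eya4 13 and Eya3 1. With at least 100 kb from both ends, 50 entries were far inside. These settings by construction keep fewer or stronger entries. Without Dach1, an alternative chosen after seeing the data, 126 entries and 35 far inside were left. Without entries within 1 kb of another gene's start, also added later, 213 were left, with 7 at Six4 and 10 at Six2. Six2 had 8 entries with a reach of 50 kb and 7 when noncoding genes also counted as nearest. With the window at a gene end at 500 bp, 5 of 8 genes had an entry in it, against 60.0% of all genes, and with 2 kb all 8 did, against 70.5%. Of 40 counts for single genes 11 moved by over 1.5 times, 6 of them with the upper 50%. The pooled list, its unknown depth, weak entries near 11 reads and genes chosen on their values limit every count here.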
